A study of Mus musculus with 16 samples.

Results

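The 10 genes described here encode heat shock proteins and molecular chaperones: Hsph1, Hspa1a, Hspa1b, Hspa5, Hspa8, Hspb1, Hspd1, Hspe1, Hsp90aa1 and Dnajb1. They were taken by symbol from tables of read counts over 47729 genes, and all 10 had counts in each of the 16 libraries. The set was chosen by symbol with the measured hepatocyte counts in view, above all the difference of Hsph1 between genotype labels, so the hepatocyte difference is given as a description without a p-value. Other results of these data were also known when the set and the further chaperone lists below were chosen. The p-values and passing counts in the other cell types are therefore no independent support either.

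The study addressed how loss of the transcription factor Zeb2 in endothelial cells affects the cells of the liver. RNA was sequenced from endothelial cells (EC), hepatic stellate cells (HSC), Kupffer cells (KC) and hepatocytes (HEP) of unchallenged adult mouse liver, with 2 libraries labelled KO and 2 labelled WT for each cell type. All mice carried floxed Zeb2 alleles and received 2 mg tamoxifen per day for 5 days. Those labelled KO also carried Cdh5-CreERT2, a tamoxifen-inducible Cre driven by an endothelial promoter, and those labelled WT were littermates without Cre. Hepatocytes were separated by centrifugation and the other cells by flow sorting: HSC by the ultraviolet autofluorescence of their vitamin A, KC by F4/80 and EC by a pan-endothelial antigen. The labels do not say which libraries came from 1 mouse, so EC, HSC, KC and HEP libraries may come from the same livers, and every p-value measures only the spread between these libraries.

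Gene-assigned reads ranged from 12872706 to 15690506 per library, and levels are given as CPM, the share of a library's gene-assigned reads scaled to 1000000, on which 3 reads correspond to 0.191 to 0.233 CPM. The lowest count of any of the 10 genes was 22 reads, for Hspa1a in a WT hepatocyte library. Zeb2 itself was not lower with the KO label in EC, with 106 and 106 CPM in the WT libraries and 199 and 130 in those labelled KO (log2 fold change 0.62, SE 0.24, edgeR adjusted p = 0.303). Reads from undeleted exons are counted too and exon-level reads were not examined, so this value does not measure the deletion. The paper reports an efficient deletion in endothelium, both at the mRNA level and by the share of recombined cells. The groups are named by their labels throughout. Each cell type expressed its own markers, but the WT sinusoidal libraries and those labelled KO differed in hepatocyte transcripts. The summed level of 12 hepatocyte markers was 14403 to 30301 CPM in WT EC against 2449 to 3391 with the KO label, and 4007 to 9484 CPM in WT HSC against 703 to 1801. In KC the order was the other way round, with 7109 to 10697 CPM in WT and 11792 to 14552 with the KO label. None of the 12 markers was at 0 in any library.

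Chaperones bind unfolded or partly folded proteins and help them to reach, keep or regain their shape. In the heat shock response, the factor HSF1 binds heat shock elements, inverted repeats of the short unit nGAAn, upstream of genes such as Hspa1a, Hspa1b, Hsph1 and Dnajb1, and their transcripts then accumulate within minutes. Hspa8, its relative in the endoplasmic reticulum (ER) Hspa5, and the mitochondrial pair Hspd1 and Hspe1 are made in unstressed cells, and Hspa5 is raised by the separate ER stress response. Tissue digestion and sorting are themselves known to induce heat shock and immediate early genes.

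All 10 genes are protein coding. On GRCm38 (GENCODE M21), Hspa1b (chr17:34956436-34959238) and Hspa1a (chr17:34969190-34972156) lie side by side on the minus strand, and Hspd1 (chr1:55077835-55088243, minus strand) and Hspe1 (chr1:55088132-55091307, plus strand) are divergent genes that meet at their 5′ ends. The others are Hsph1 (chr5:149614287-149636376, minus), Hspb1 (chr5:135887919-135889563, plus), Hspa5 (chr2:34771970-34777547, plus), Hspa8 (chr9:40800984-40810087, plus), Hsp90aa1 (chr12:110690605-110702728, minus) and Dnajb1 (chr8:83608193-83612653, plus). Reads that align to more than 1 place were not counted, and several of these genes have close copies. Of the 50-base windows along the longest transcript, 66.3% in Hspa1a and 62.3% in Hspa1b recurred in another gene, mostly the other one of the pair. Their transcripts were identical at 2514 of 2771 aligned bases. The share was 58.5% for Hsp90aa1, 52.7% for Hspa8, 51.6% for Hspb1 and 44.8% for Hspd1, against 8.20% for Hspe1, 0.441% for Dnajb1 and 0 for Hsph1 and Hspa5. Levels of the genes with large shares may therefore be understated, by an amount that was not measured. The split between Hspa1a and Hspa1b is uncertain.

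The sequences around the start site were searched for exact matches to heat shock elements. RefSeq (GRCm38.p6) promoter windows from 250 bases upstream to 50 bases past the start were at hand for 8 of the 10 members. A 3-unit element (TTCNNGAANNTTC or GAANNTTCNNGAA, both strands) stood in windows of Hsph1, Hspd1 and Hspe1. It stood in 0.662% of 27025 genes, counting any window of a gene, and in 0.603% of their 32851 windows. A 2-unit element (GAANNTTC or TTCNNGAA, both strands), which every 3-unit element contains, stood in windows of 6 of the 8 members (Hsph1, Hspa1a, Hspa1b, Hspb1, Hspd1 and Hspe1). It stood in 17.0% of all genes and 15.1% of all windows. The ER stress response element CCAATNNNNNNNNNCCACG, searched on both strands, was found for Hspa5 alone among the 8, in 0.137% of all genes and in 0.119% of all windows. Dnajb1 and Hspa5 had no match to a heat shock element in these windows, which does not show that they lack one. These are matches of letters, and no binding was measured. The 250 bases upstream of Hspa1a (chr17:34972157-34972406, minus strand) and Hspa1b (chr17:34959239-34959488, minus strand) are shown because the pair moved together across the libraries, and those of Hspb1 (chr5:135887669-135887918, plus strand) because it was the member with the highest log2 fold change between labels in EC. Capitals mark the 2-unit elements, the one shared by Hspa1a and Hspa1b lying 104 to 97 bases upstream of the start. The stretches of Hspa1a and Hspa1b differ at 3 of 250 positions.
Hspa1a: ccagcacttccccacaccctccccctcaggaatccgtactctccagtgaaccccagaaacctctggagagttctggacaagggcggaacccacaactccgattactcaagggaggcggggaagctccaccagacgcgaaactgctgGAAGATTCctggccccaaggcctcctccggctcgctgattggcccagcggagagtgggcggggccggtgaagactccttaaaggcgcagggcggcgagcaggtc
Hspa1b: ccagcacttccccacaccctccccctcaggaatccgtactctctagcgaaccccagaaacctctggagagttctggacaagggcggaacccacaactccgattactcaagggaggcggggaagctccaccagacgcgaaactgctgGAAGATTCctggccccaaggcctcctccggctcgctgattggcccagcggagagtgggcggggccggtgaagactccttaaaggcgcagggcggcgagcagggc
Hspb1: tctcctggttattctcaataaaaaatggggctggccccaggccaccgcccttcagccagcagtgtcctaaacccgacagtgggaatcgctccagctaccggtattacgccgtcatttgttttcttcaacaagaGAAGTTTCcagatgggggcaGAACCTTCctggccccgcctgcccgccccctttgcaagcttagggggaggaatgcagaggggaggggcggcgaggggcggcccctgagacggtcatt

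For Hsph1, the Hspd1 and Hspe1 pair and Hspa5, only the stretch around the element is shown, again with the element in capitals. The 2-unit element of Hsph1 (chr5:149636351-149636380, minus strand) ended 26 bases upstream of its 5′-most RefSeq start, and its 3-unit element (chr5:149636287-149636308, minus strand) began 36 bases past that start. Hspd1 and Hspe1 share 1 run of 18 bases made of overlapping elements (chr1:55088053-55088082, plus strand, 89 to 72 bases upstream of the RefSeq start of Hspe1). The ER stress response element of Hspa5 (chr2:34772020-34772049, plus strand) lay 65 to 47 bases upstream of its RefSeq start. The GENCODE ranges of Hsph1, Hspa5 and Hspd1 given above cover their elements, which therefore lie inside the genes as annotated there.
Hsph1, upstream: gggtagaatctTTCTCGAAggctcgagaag
Hsph1, past the start: gctgcagaTTCTGGAAAGTTCt
Hspd1 and Hspe1: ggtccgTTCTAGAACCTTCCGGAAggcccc
Hspa5: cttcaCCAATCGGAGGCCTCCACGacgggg

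The members differed widely in abundance and in where they were highest. Per kilobase of exon, which allows genes to be compared, Hspa5 had the highest counted level of the 10 in every cell type, at 501 ± 152 CPM per kb in EC, 588 ± 147 in HSC, 394 ± 21.6 in KC and 381 ± 72.6 in HEP (SD, n = 4 libraries, both labels together). The order of Hspa5 and Hspa8 is uncertain. Reads from the 52.7% of Hspa8 windows with a copy elsewhere may have gone uncounted, and Hspa5 has no such windows. By counted reads, Hspa8 or Dnajb1 came next in the sinusoidal cells, with 181 ± 11.4 CPM per kb of Hspa8 in EC, 194 ± 10.7 in KC, and 343 ± 176 of Dnajb1 in HSC. The inducible Hspa1a reached 65.0 ± 44.2 CPM per kb in HSC and 69.7 ± 45.1 in KC but 1.03 ± 0.372 in HEP.

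**Figure D1:**
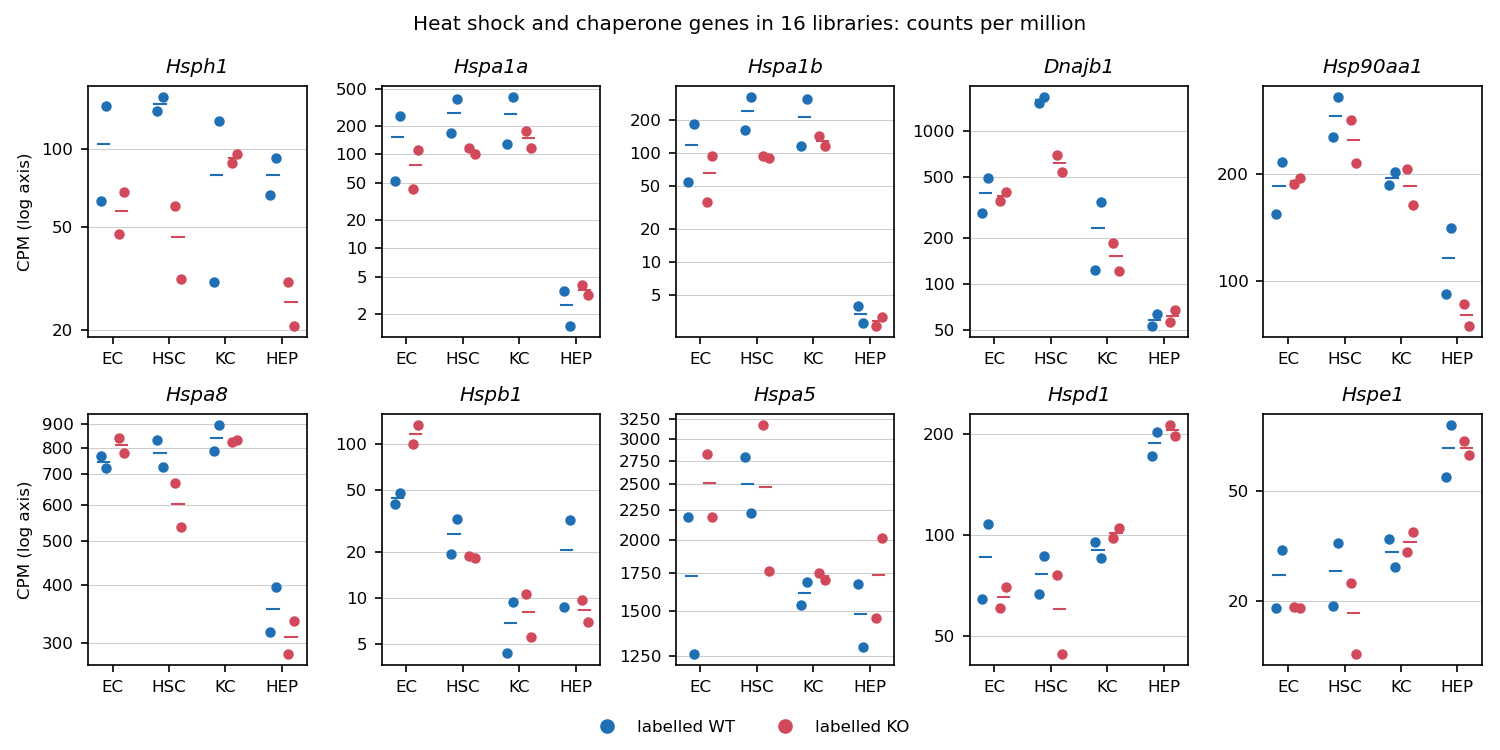
Level of each of the 10 genes in CPM (log axis, 1 panel per gene) in the 16 libraries, by cell type (EC, HSC, KC, HEP) and genotype label. Each point is 1 library. Hspa1a and Hspa1b stood at 1.50 to 4.06 CPM in hepatocytes and at 35.7 CPM or more in every other library, and Hspd1 and Hspe1 were highest in hepatocytes. Hepatocytes were separated by centrifugation and the other cells by flow sorting.

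The inducible pair Hspa1a and Hspa1b separated the hepatocyte libraries from those of the sinusoidal cells. Hepatocytes were separated by centrifugation and the other cells by flow sorting, so cell type and isolation cannot be told apart in any contrast with HEP. Hspa1a ranged from 42.6 to 253 CPM in EC (median 82.3), from 99.9 to 385 in HSC (median 144), from 117 to 403 in KC (median 153) and from 1.50 to 4.06 in HEP (median 3.34). Hspa1b ranged from 35.7 to 184 CPM in EC, from 89.5 to 326 in HSC, from 116 to 316 in KC and from 2.58 to 3.89 in HEP. No hepatocyte library overlapped any other library for either gene, while the 3 sinusoidal types overlapped each other. Against HEP, 66.6% of all genes did not overlap for EC, 64.4% for HSC and 54.7% for KC. Differences between cell types were tested with edgeR's quasi-likelihood test in 1 fit of all 16 libraries, with Benjamini-Hochberg adjustment over 17214 genes and a threshold of 0.05. Libraries were scaled with TMM factors, which align the bulk of genes, and again with library totals alone, because the 2 scalings shift the median ratio of all genes against HEP by 0.99 to 1.31 on the log2 scale. Hspa1a was higher than in HEP by a log2 ratio of 3.82 (SE 0.57) in EC, 4.73 (SE 0.59) in HSC and 4.96 (SE 0.60) in KC under TMM, and by 5.17, 5.84 and 6.04 under totals. The largest of these 3 adjusted p-values under TMM was 0.000112, in EC. Hepatocyte counts were in view when the set was chosen, so p-values and passing counts against HEP, here and below, are descriptive only. For Hspa1b the TMM ratios were 3.48 (SE 0.47), 4.48 (SE 0.49) and 4.69 (SE 0.50).

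The mitochondrial chaperonin genes went the other way. Hspd1, which encodes the barrel-forming HSP60, stood at 172 to 213 CPM in HEP against 60.7 to 108 in EC, 44.3 to 86.6 in HSC and 85.3 to 105 in KC. Hspe1, which encodes its lid HSP10, stood at 55.8 to 86.0 CPM in HEP against at most 35.5 in the other 12 libraries. Neither gene's hepatocyte libraries overlapped those of another cell type. Hspd1 was lower than in HEP by log2 ratios of -2.77 (SE 0.23) in EC, -2.67 (SE 0.23) in HSC and -2.09 (SE 0.23) in KC under TMM, and of -1.39, -1.53 and -1.04 under totals. Hspe1 gave -3.09 (SE 0.28), -2.86 (SE 0.28) and -2.23 (SE 0.27), and -1.71, -1.71 and -1.18. Each of these ratios passed the threshold under both scalings.

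**Figure D2:**
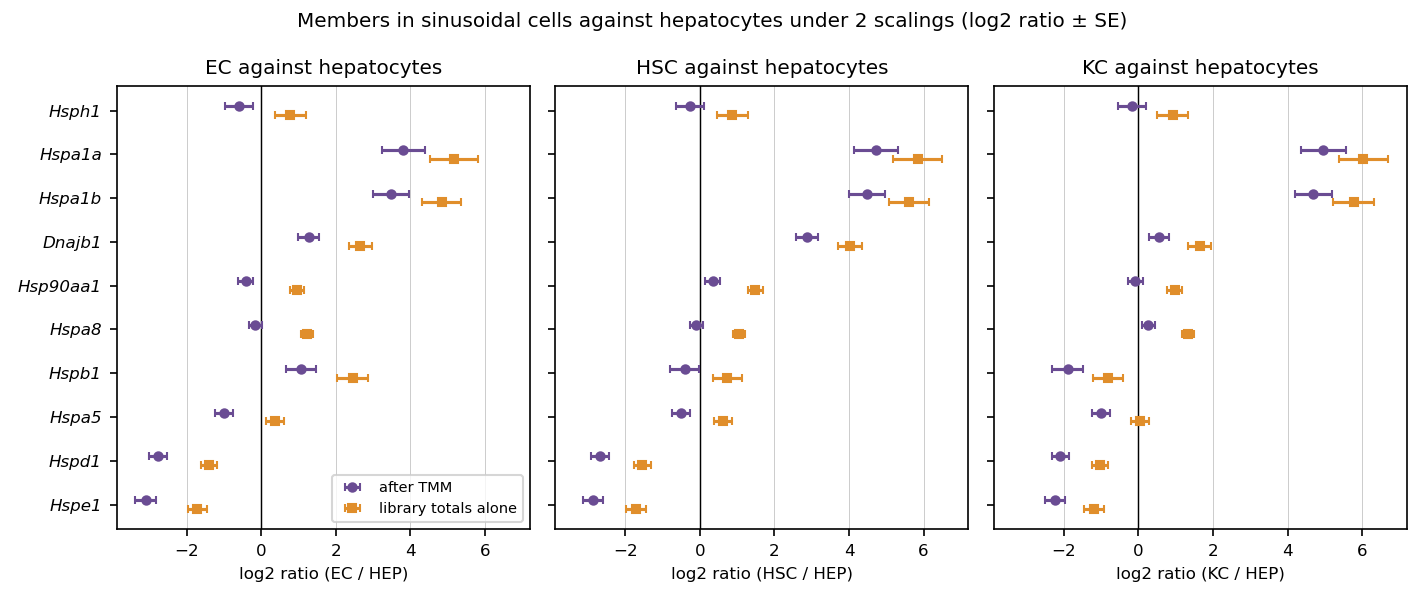
Log2 ratio ± SE of each gene in EC, HSC and KC against hepatocytes (x axis; fit of 16 libraries), under TMM scaling and under library totals alone. Under both scalings the ratios of Hspa1a and Hspa1b were at 3.48 or more and those of Hspd1 and Hspe1 at -1.04 or less, while Hspa8, Hspa5, Hsph1, Hsp90aa1 and Hspb1 changed side of 0 for at least 1 cell type. Cell type and isolation cannot be told apart in these ratios.

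The remaining members gave less uniform contrasts with hepatocytes. In all, 7 of the 10 members passed the threshold between EC and HEP, 5 between HSC and HEP and 6 between KC and HEP, where 58.7%, 58.4% and 55.6% of all genes did. Those that passed under both scalings with 1 sign numbered 6, 5 and 4, and under totals 71.4%, 69.8% and 63.2% of all genes passed. Beyond the pairs above, these were Dnajb1 in EC (log2 ratio 1.28, SE 0.28, adjusted p = 0.00187) and in HSC (2.89, SE 0.29, adjusted p = 4.49e-06), and Hspb1 in EC (1.07, SE 0.39, adjusted p = 0.0334). That last ratio was -0.27 in the 8 WT libraries alone. Hspa5 was lower in EC than in HEP under TMM (-0.996, SE 0.25, adjusted p = 0.00481), but its ratio was 0.38 under totals (adjusted p = 0.181). Hspa8, the constitutive cytosolic HSP70, had 284 to 396 CPM in HEP and 538 to 896 elsewhere, yet its TMM ratios against HEP were -0.15, -0.091 and 0.27, none of them past the threshold. Under totals they were 1.23, 1.05 and 1.33, and all 3 passed.

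Among the sinusoidal cells, Dnajb1 was highest in HSC and Hspb1 in EC. Dnajb1 encodes an HSP40 with a J domain that stimulates HSP70. It stood at 1098 ± 564 CPM in HSC, 383 ± 85.8 in EC, 193 ± 103 in KC and 60.6 ± 6.50 in HEP (SD, n = 4). HSC overlapped neither EC nor KC, as held for 32.8% and 39.3% of all genes, while EC and KC overlapped (36.2% of all genes did not). The ratio of EC to HSC was -1.61 (log2, SE 0.28, adjusted p = 0.00120) and that of HSC to KC was 2.34 (SE 0.29, adjusted p = 5.64e-05). Hspb1 encodes the small heat shock protein HSP25, which holds unfolding proteins and binds actin. It stood at 80.3 ± 43.8 CPM in EC, 22.3 ± 7.01 in HSC, 14.4 ± 11.9 in HEP and 7.51 ± 3.01 in KC. EC lay above all other libraries, HSC lay above KC, and HEP overlapped both. The log2 ratio was 1.47 for EC to HSC (SE 0.39, adjusted p = 0.0162), 2.97 for EC to KC (SE 0.42, adjusted p = 0.000185) and 1.50 for HSC to KC (SE 0.40, adjusted p = 0.0101).

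Hsp90aa1, the inducible cytosolic HSP90, was highest in HSC, with 215 to 329 CPM against 154 to 216 in EC and 164 to 206 in KC. Its ratio of EC to HSC passed the threshold under TMM (-0.77, SE 0.20, adjusted p = 0.0154) and missed it under totals (adjusted p = 0.0659). Between EC and HSC, 3 members passed (Dnajb1, Hspb1 and Hsp90aa1; 26.0% of all genes), between EC and KC 4 (Hspb1, Hspa1b, Hspd1 and Hspe1; 32.0%) and between HSC and KC 3 (Dnajb1, Hspb1 and Hspd1; 42.9%). With the 8 WT libraries alone, Dnajb1 was the 1 member that passed between EC and HSC (1630 of 15979 genes did). With the 8 labelled KO it was Hspb1 (2192 of 16037 genes did). Under totals, Hspb1 and Dnajb1 were the members that passed in each of these pairs, where 28.8%, 36.2% and 42.8% of all genes passed. Hsph1 did not pass in any pair of cell types under either scaling. This gene, whose product HSP110 exchanges the nucleotide of HSP70, had means of 97.5 ± 61.5 CPM in HSC, 85.6 ± 40.7 in KC, 81.2 ± 44.9 in EC and 52.6 ± 33.1 in HEP, and all 4 types overlapped.

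The KO and WT labels were compared within each cell type with the same test on its 4 libraries. In EC, none of the 10 members passed the threshold, where 2.08% of 14631 genes (305) did. That number rests on single libraries and on the gene set: it was 3 without KO library 46, 58 without KO library 6, 688 without WT library 34, 190 under totals, and 0 with the 857 genes enriched in hepatocytes left out. At an unadjusted p under 0.05 there was 1 member, Hspb1 (15.0% of all genes), and DESeq2 called the same gene (6.39% of all genes). Without a filter on low counts edgeR called 2 members, Hspb1 and Hspa1a (5.26%). Hspb1 stood at 40.7 and 48.0 CPM in WT and at 99.7 and 133 with the KO label. Both libraries labelled KO lay above both WT libraries, with a log2 fold change of 1.40 (SE 0.26, 2.64-fold, edgeR adjusted p = 0.0546). Without the hepatocyte-enriched genes, defined against KC only and none of them a member, the log2 fold change was 1.36 and the adjusted p 0.180 with edgeR. WT hepatocytes held 8.73 and 32.3 CPM of Hspb1.

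Hspa8 was the other member whose libraries did not overlap in EC, with 766 and 721 CPM in WT and 840.2 and 779.7 with the KO label (log2 fold change 0.12, SE 0.23, adjusted p = 0.864). These 2 of 10 members lay higher with the KO label without overlap, and none lay lower, where 24.2% and 24.1% of all genes did. The inducible genes spread widely within WT. Hsph1 had 62.8 and 147 CPM in WT and 46.7 and 68.1 with the KO label (log2 fold change -0.85, SE 0.43, adjusted p = 0.419). Hspa1a had 52.5 and 253 CPM in WT and 42.6 and 112 with the KO label (-0.94, SE 0.76, adjusted p = 0.629). For both genes, and for Hspa1b, 1 WT library (number 38) lay above the other 3. Without it, the log2 fold change was -0.14 for Hsph1, 0.56 for Hspa1a and 0.27 for Hspa1b. That library also had the most hepatocyte marker RNA of the EC libraries, and the part of this RNA in the members' values was not tested. WT hepatocytes held 1.50 and 3.51 CPM of Hspa1a.

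In HSC, all 10 log2 fold changes were below 0, with a median of -0.52, where the median of all 14390 genes tested was 0.016. The 4 lowest were Hsph1, Hspa1b, Dnajb1 and Hspa1a, the inducible HSP110, HSP70 and HSP40 genes. Hsph1 stood at 141 and 158 CPM in WT and at 59.9 and 31.3 with the KO label (log2 fold change -1.75, SE 0.31, edgeR adjusted p = 0.309). Dnajb1 stood at 1510.3 and 1651 CPM in WT and at 692 and 539 with the KO label (-1.39, SE 0.22, adjusted p = 0.297). Both libraries labelled KO lay below both WT libraries, by 3.36-fold for Hsph1 and 2.61-fold for Dnajb1. Hspa1a stood at 169.7 and 385 CPM in WT and at 117 and 99.9 with the KO label (-1.37, SE 0.40, adjusted p = 0.430). Hspa1b stood at 162 and 326 CPM in WT and at 94.0 and 89.5 with the KO label (-1.43, SE 0.35, adjusted p = 0.371).

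With edgeR none of the 10 passed the threshold in HSC, and none of the 14390 genes did (0%). At an unadjusted p under 0.05 there were 4 members (Hsph1, Dnajb1, Hspa1a and Hspa1b) against 8.75% of all genes, and DESeq2 called the same 4 against 2.70%. Without the low-count filter edgeR also called these 4, against 2.70%. Libraries did not overlap for these 4, Hspa8 and Hspb1, all 6 lower with the KO label, as were 19.3% of all genes tested. Hspa8 had 829.8 and 727 CPM in WT and 668 and 538 with the KO label (-0.39, SE 0.22), and Hspb1 had 19.4 and 32.8 CPM in WT and 18.8 and 18.1 with the KO label (-0.51, SE 0.33). Hspa5, Hspd1, Hspe1 and Hsp90aa1 overlapped, with log2 fold changes from -0.54 to -0.061. Without WT library 40, the log2 fold change was -0.69 for Hspa1a and -0.87 for Hspa1b, and that of Hsph1 was -1.69 and of Dnajb1 -1.35. The hepatocyte marker RNA given above was also higher in the WT HSC libraries, and its part in these values was not tested. WT hepatocytes held 66.5 and 92.6 CPM of Hsph1 and 53.7 and 64.0 CPM of Dnajb1. In bulk RNA, fewer cells of a kind and less RNA per cell cannot be told apart.

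**Figure D3:**
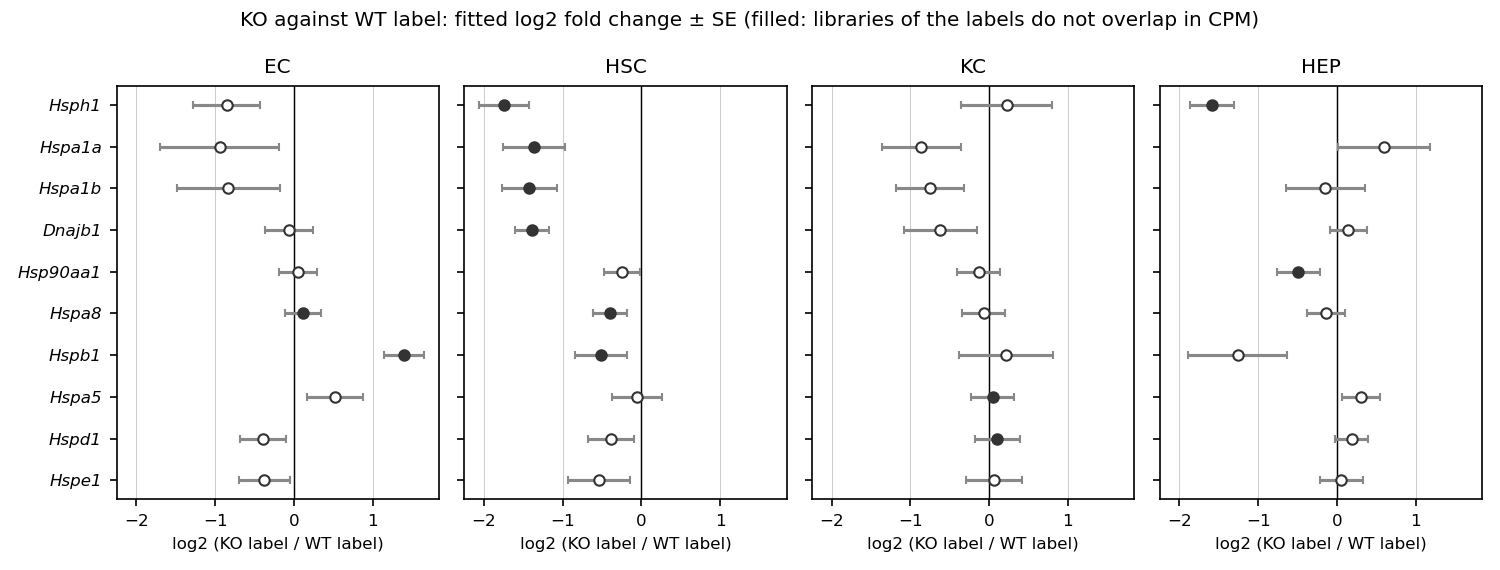
Fitted log2 fold change ± SE of each gene, KO over WT label, in the 4 cell types (x axis; 2 libraries per label). Filled symbols mark genes whose libraries do not overlap between the labels. All 10 genes lie below 0 in HSC, Hspb1 alone lies above 1 in EC, and Hsph1 lies at -1.59 in hepatocytes.

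In KC, none of the 10 members passed with edgeR or DESeq2, at an unadjusted p under 0.05 there were 0 as well, and 0% of all genes passed with edgeR, 0.510% with DESeq2 and 5.09% without adjustment. Hsph1 had 30.4 and 128 CPM in WT and 88.2 and 95.7 with the KO label (log2 fold change 0.22, SE 0.58, adjusted p = 0.981). Hspa1a had 128 and 403 CPM in WT and 178 and 117 with the KO label (-0.86, SE 0.51, adjusted p = 0.933). The WT libraries bracketed those labelled KO for Hsph1, and 1 of them (number 39) lay highest of the 4 for Hsph1, Hspa1a, Hspa1b and Dnajb1. Without library 39 the log2 fold change was 1.43 for Hsph1, 0.035 for Hspa1a and 0.13 for Dnajb1, and without the other WT library (number 31) it was -0.42 for Hsph1. Library 31 stood apart in Marco, a macrophage receptor, at 9163 CPM against 368 to 670.0 in the other KC libraries. The list of 10 Kupffer cell markers that holds Marco showed no such gap. Its median was 105% of the WT mean in library 31, 94.5% in library 39, and 86.6% and 88.1% with the KO label. Hspa5 and Hspd1 lay higher with the KO label without overlap, with log2 fold changes of 0.044 and 0.10, where 20.5% of all genes did so. The summed level of 22 immediate early genes was 32137 to 40928 CPM in WT KC and 10243 to 17179 with the KO label, and its part in these values was not tested.

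In hepatocytes, Hsph1 was the member with the lowest KO to WT ratio. It had 66.5 and 92.6 CPM in WT (79.5 ± 18.5, SD, n = 2) and 30.6 and 20.7 with the KO label (25.7 ± 7.02). The libraries of the labels did not overlap, and the log2 fold change was -1.59 (SE 0.28), or 3.00-fold higher in WT. Leaving out any 1 hepatocyte library gave between -1.85 and -1.26. Hsp90aa1 had 91.9 and 140.4 CPM in WT and 85.6 and 74.5 with the KO label (-0.49, SE 0.28), also without overlap, and gave -0.083 without WT library 33. These 2 of 10 members lay lower without overlap and none lay higher, where 23.2% and 16.4% of 11548 genes did. The difference of Hsph1 was in view when the set was chosen, so its place in this count was not open. Hspb1 had 8.73 and 32.3 CPM in WT and 9.73 and 7.01 with the KO label, so that its log2 fold change of -1.26 (SE 0.62) turned to 0.050 without the same WT library. The other 7 members overlapped, with log2 fold changes from -0.14 (Hspa1b) to 0.60 (Hspa1a). Immediate early genes summed to 6653 to 6910 CPM in WT hepatocytes and 4012 to 5321 with the KO label, and their part in the Hsph1 values was not tested.

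Whether a label difference itself differed between cell types was tested as an interaction in the fit of 16 libraries, for EC, HSC and KC. None of the 10 members passed for EC against HSC, EC against KC or HSC against KC with edgeR or DESeq2, where edgeR called 0.0349%, 2.07% and 0.593% of all genes. At an unadjusted p under 0.05 there were 2 for EC against HSC, none for EC against KC and 1 for HSC against KC. The share of all genes at this unadjusted level was not computed, so nothing is concluded from these counts. The members were Hspb1 (log2 difference 1.93, SE 0.78, adjusted p = 0.965) and Dnajb1 (1.34, SE 0.55, adjusted p = 0.988) for EC against HSC, and Hsph1 (-2.01, SE 0.76, adjusted p = 0.321) for HSC against KC. Without the low-count filter that last difference passed (adjusted p = 0.00736), as did 3.81% of all genes.

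In each sinusoidal cell type, 1 library was the highest in all 4 inducible genes. Hspa1a, Hspa1b, Hsph1 and Dnajb1 were each highest in EC WT 38 among EC, in HSC WT 40 among HSC and in KC WT 39 among KC. What these consecutive numbers stand for is not given in the labels. Hepatocyte libraries did not share this order: HEP WT 33 was the highest in Hsph1 (1.06 above the mean of its cell type on the log2 scale) and the lowest in Hspa1a (-0.88), and HEP KO 41 was the lowest in Hsph1 (-1.10) and the highest in Dnajb1 (0.17). Against the mean of its cell type, Hspa1a was higher by 1.50 in EC WT 38, 1.21 in HSC WT 40 and 1.15 in KC WT 39 on the log2 scale. Hspd1 and Hspe1 lay above their means in 2 of these libraries, by 0.55 and 0.51 in EC WT 38 and by 0.39 and 0.63 in HSC WT 40, but stood at -0.17 and -0.23 in KC WT 39. Hspa5 was below its cell type mean by 0.69 in EC WT 38, the largest deviation of that gene in either direction.

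Over the 16 libraries, each centred on its cell type, the correlation of log2 CPM was 0.93 between Hspa1a and Hspa1b and 0.93 between Hspd1 and Hspe1. The former pair shares much of its transcript sequence and the latter a promoter region. Dnajb1 gave 0.79 with Hspa1b and 0.73 with Hspa1a, Hsph1 gave 0.68 with Hspa1b and 0.67 with Dnajb1, and Hspb1 gave 0.74 with Hsp90aa1. Hspa5 stood apart from the inducible genes, at -0.35 with Hspa1a, -0.42 with Hspa1b and -0.011 with Dnajb1, and gave 0.54 with the summed level of 15 other ER chaperones and folding enzymes. The summed hepatocyte markers gave 0.54 with Hsph1, 0.61 with Hspa1b and -0.51 with Hspa5, and the summed immediate early genes gave 0.13, 0.30 and -0.18. These coefficients describe 16 libraries that share labels, and perhaps livers, and carry no p-value.

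**Figure D4:**
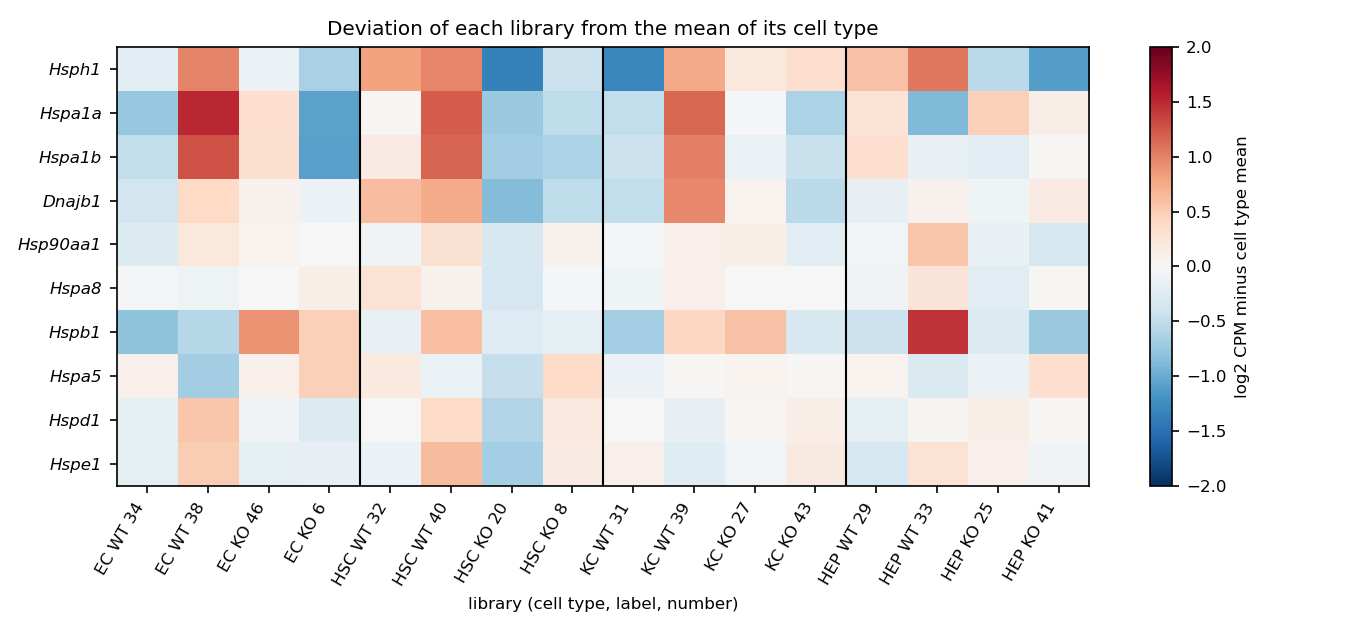
Deviation of log2 CPM from the mean of its cell type (colour) for each gene (y axis) in each library (x axis). EC WT 38, HSC WT 40 and KC WT 39 are high in Hspa1a, Hspa1b, Dnajb1 and Hsph1 together. In these libraries Hspb1 lies at -0.57, 0.60 and 0.41. Hspb1 is highest in HEP WT 33 (1.44) and EC KO 46 (0.90).

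Among 9024 genes with a symbol and a mean of at least 10 CPM, the 5 whose centred profile over the 16 libraries was most like that of Hsph1 were Lrpprc (r = 0.86), Usp47 (0.86), Spata5 (0.85), March6 (0.85) and Kbtbd2 (0.85). Without centring they were Ogdh (0.83), Usp47 (0.82), Kpna1 (0.82), Hyou1 (0.81) and Eif4g2 (0.81). Hyou1, the ER counterpart of HSP110, was the single chaperone among these 9. Of the other members, Hspa1b came closest to Hsph1 by the centred measure, at rank 492. Without the 4 hepatocyte libraries, none of the 5 centred genes and 1 of the 5 uncentred genes (Hyou1) was again among the 5.

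The wider chaperone network was described with 79 further genes in 8 lists: HSP70 and HSP110 relatives, HSP90 relatives, small heat shock proteins, J-domain cochaperones, cochaperones of HSP70 and HSP90, ER chaperones and folding enzymes, subunits of the cytosolic chaperonin CCT, and heat shock factors. None of them passed the edgeR threshold between labels in EC (76 tested), HSC (77 tested) or KC (75 tested). At an unadjusted p under 0.05 there were 6 in EC, 7 in HSC and 3 in KC, where 15.0%, 8.75% and 5.09% of all genes passed. DESeq2 called 3 in EC and none in HSC or KC, where it called 6.39%, 2.70% and 0.510% of all genes. The fit of 16 libraries called 1 in EC, Hspb8, and 2.46% of all genes. Log2 fold changes above 0 numbered 54 of 76 in EC (median 0.16), 49 of 77 in HSC (median 0.049), 29 of 75 in KC (median -0.068) and 40 of 72 in HEP (median 0.051). Over all genes tested the shares above 0 were 49.1%, 51.3%, 48.5% and 48.5%, with medians between -0.021 and 0.016. Libraries did not overlap for 30 higher and 12 lower genes in EC, where 24.2% and 24.1% of all genes did not, and for 10 and 9 in HSC (20.5% and 19.3%). The counts were 16 and 11 in KC (20.5% and 16.1%) and 11 and 17 in HEP (16.4% and 23.2%).

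**Figure D5:**
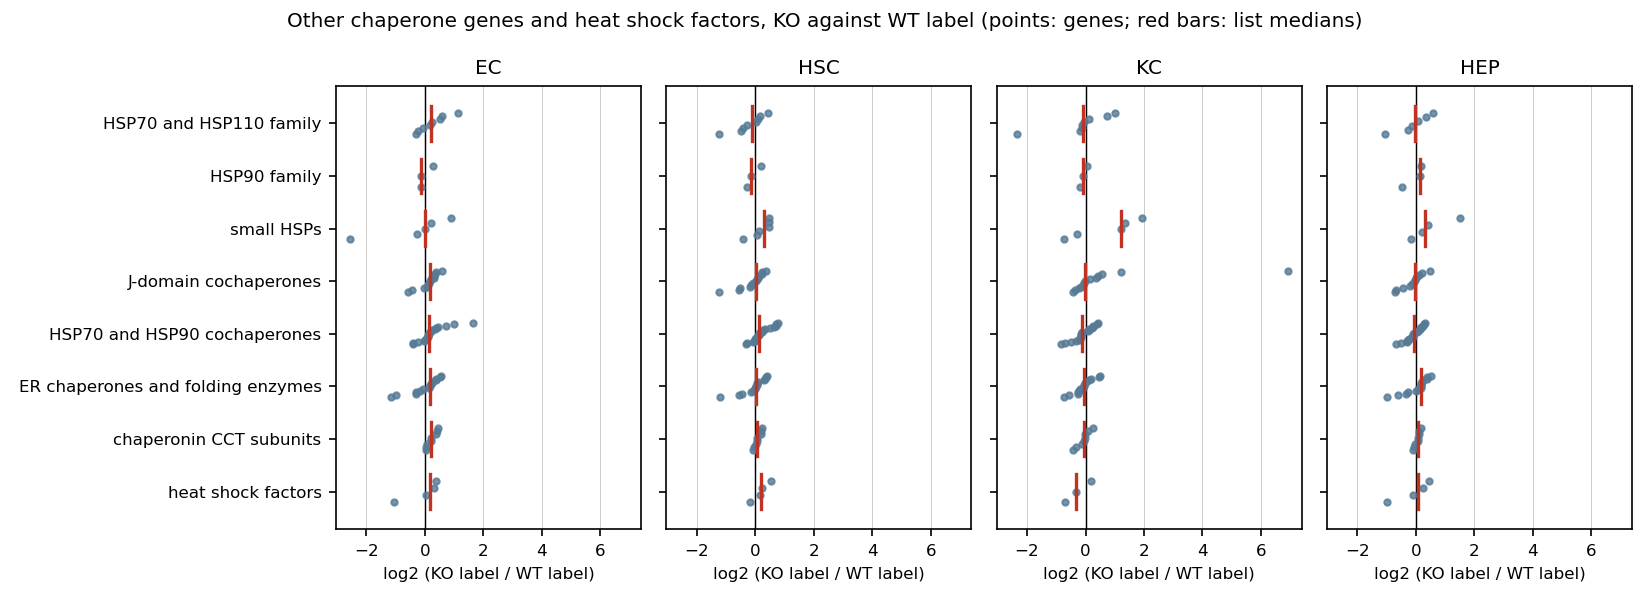
Log2 fold change, KO over WT label (x axis), of the further chaperone genes and heat shock factors in each cell type, 1 row per list. Points are genes and red bars are list medians. All 8 CCT subunits lie above 0 in EC, at 0.027 to 0.45, and Hspb8 lies at -2.56.

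In EC the lowest log2 fold change among the 79 was that of Hspb8, which encodes a small heat shock protein that works with Bag3 in selective autophagy. It stood at 36.8 and 76.2 CPM in WT and at 6.27 and 12.5 with the KO label (log2 fold change -2.56, SE 0.50, edgeR adjusted p = 0.0647). Hspb8 was also 320 to 522 CPM in hepatocytes, where its level was the highest of the 4 cell types, and the hepatocyte marker RNA of the WT EC libraries, given above, moved with it. Its part in the Hspb8 values was not tested. Bag5, a nucleotide exchange factor of HSP70, stood at 52.1 and 45.1 CPM in WT and at 94.5 and 99.8 with the KO label (log2 fold change 0.999, SE 0.22, adjusted p = 0.0931). DESeq2 called Hspb8, Bag5 and Hyou1. Hyou1 stood at 83.2 and 64.1 CPM in WT EC and at 42.3 and 32.1 with the KO label. It was lower without overlap in HSC as well, with 106 and 97.2 against 63.0 and 28.0 CPM (-1.20, SE 0.37, adjusted p = 0.448), and in HEP, with 81.7 and 55.7 against 41.7 and 25.3 CPM (-0.98), where 19.3% and 23.2% of all genes were lower without overlap. In KC its labels overlapped, with 21.5 and 69.0 CPM in WT and 56.3 and 71.6 with the KO label (0.50, SE 0.51, adjusted p = 0.955).

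The HSP70 and HSP110 relatives in EC ran from -0.32 (Hspa9, the mitochondrial HSP70) to 1.14 (Hspa2), the HSP90 relatives from -0.13 (Trap1, mitochondrial) to 0.26 (Hsp90ab1, the constitutive cytosolic HSP90) and the J-domain genes from -0.58 (Dnajb2) to 0.59 (Dnajb9, of the ER). The HSP70 and HSP90 cochaperones ran from -0.42 (Ahsa2) to 1.65 (Bag2, at most 1.74 CPM), the ER genes from -1.17 (Ero1b, an oxidase) to 0.54 (Creld2), the CCT subunits from 0.027 (Tcp1) to 0.45 (Cct6a) and the heat shock factors from -1.04 (Hsf4, at most 1.71 CPM) to 0.38 (Hsbp1, a binding protein of HSF1). Hspb11 was the highest entry in the list of small heat shock proteins, at 0.90.

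In HSC the HSP70 and HSP110 relatives ran from -1.26 (Hspa12a) to 0.43 (Hspa2) and the HSP90 relatives from -0.29 (Hsp90ab1) to 0.19 (Hsp90b1, of the ER). The list of small heat shock proteins ran from -0.41 (Hspb7) to 0.49 (Hspb11). The J-domain genes ran from -1.23 (Dnajb5) to 0.37 (Dnajb9) and the HSP70 and HSP90 cochaperones from -0.31 (Bag3, an exchange factor induced with HSP70) to 0.77 (Fkbp5). The ER genes ran from -1.20 (Hyou1) to 0.42 (Erp29), the CCT subunits from -0.078 (Cct4) to 0.22 (Cct3) and the heat shock factors from -0.17 (Hsf1) to 0.54 (Hsf4). Hsf1, which encodes the factor that binds heat shock elements, thus had 83.3 and 85.8 CPM in WT HSC and 80.5 and 72.2 with the KO label. Of the 77 genes tested, 49 were above 0 in this cell type, where all 10 members were below 0.

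In KC the HSP70 and HSP110 relatives ran from -2.36 (Hspa1l, at most 2.02 CPM) to 0.99 (Hspa2), the HSP90 relatives from -0.20 (Hsp90ab1) to 0.057 (Trap1) and the small heat shock proteins from -0.73 (Hspb2) to 1.95 (Hspb6). The HSP70 and HSP90 cochaperones ran from -0.85 (Bag5) to 0.41 (Stip1, which links HSP70 to HSP90) and the ER genes from -0.73 (Erp29) to 0.50 (Hyou1). The CCT subunits ran from -0.42 (Cct3) to 0.27 (Cct4) and the heat shock factors from -0.70 (Hsf2) to 0.19 (Hsf1). Among the J-domain genes, Dnajb11 was lowest at -0.41, and Dnaja4 was the highest but had 0 reads in both WT libraries and 11 and 19 reads in those labelled KO, so no fold is given.

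In HEP, described without a test, the HSP70 and HSP110 relatives ran from -1.06 (Hspa4l) to 0.60 (Hspa2) and the HSP90 relatives from -0.46 (Hsp90ab1) to 0.17 (Trap1). The list of small heat shock proteins ran from -0.17 (Hspb11) to 1.51 (Cryab, at most 3.74 CPM). The J-domain genes ran from -0.71 (Dnajc5) to 0.48 (Dnajb4) and the HSP70 and HSP90 cochaperones from -0.67 (Chordc1) to 0.30 (Stub1). The ER genes ran from -0.98 (Hyou1) to 0.51 (Calr), the CCT subunits from -0.11 (Tcp1) to 0.17 (Cct6a) and the heat shock factors from -0.97 (Hsf2) to 0.44 (Hsf4). Calr, an ER lectin chaperone, had 497 and 574 CPM in WT hepatocytes and 832 and 635 with the KO label, whereas Hsp90ab1 had 861 and 1175 CPM in WT and 756 and 671 with the KO label.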

How the data were processed

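The authors deposited 1 table of raw read counts per gene for each of 16 libraries, with 47729 gene entries and 5 summary lines of unassigned reads. Per the labels, RNA was extracted from 4 liver cell types, and the submitters' processing notes name Trimmomatic 0.32, HISAT2 2.1.0, HTSeq 0.9.1, edgeR and GRCm38. The strand setting and annotation release are not given in the sources used here, and the labels and series text name different library kits. Reads aligned to more than 1 place (24.8 to 47.9% per library) were not counted.

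CPM was computed over gene entries, which held 12872706 to 15690506 reads per library (median 14806833). Genes passing filterByExpr were tested with edgeR 4.0.16 (R 4.3.3; TMM, glmQLFit, glmQLFTest, two-sided, Benjamini-Hochberg over all genes tested, threshold 0.05), within each cell type on 4 libraries and between cell types on 16. SE is the absolute log2 fold change over the square root of F. Scripts were tested on simulated counts. Correlations used log2 CPM with a prior count of 2. Alternatives were DESeq2 1.42.0, RLE factors, library totals alone, no low-count filter and all 16 libraries in 1 fit. Others were the WT libraries or those labelled KO alone, leaving out each library, and leaving out 857 hepatocyte-enriched genes. Those genes had a mean of at least 10 CPM in WT HEP and at least 8-fold that in WT KC. They were not compared with EC or HSC.

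The members and lists were chosen with earlier results of these data known. Named genes are the members, Zeb2, called chaperones, the range ends of each list and the 5 genes most like Hsph1. Hspb8, Hyou1 and Bag5 in EC, Hspb8 in HEP, and Marco were singled out after their values were seen. Promoter windows were matched by symbol.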

Additional observations from a re-analysis of the deposited data

How the results depend on the processing

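With 2 libraries per label, tests rest on the spread shared across genes, and levels of genes with close copies may be understated. No paired analysis was possible because the labels share no replicate number between groups. In HEP, Hsph1 stayed between -1.85 and -1.26 under every setting tried. This difference was in view when the set was chosen. Its labels did not overlap, so leaving out 1 library could hardly turn its sign, and the range is no independent support.

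Most counts that moved did so with DESeq2 or without the low-count filter, and the cause was not tested. Members called in EC rose from 0 to 1 with DESeq2 (Hspb1) and 2 without the filter (Hspa1a, Hspb1), and in HSC from 0 to 4 with either (Hsph1, Dnajb1, Hspa1a, Hspa1b), while no setting called any in KC. Further chaperone genes called in EC rose from 0 to 3 with DESeq2, 4 without the filter (Hspa2 added) and 1 (Hspb8) in the fit of 16 libraries, and in HSC from 0 to 1 (Hyou1) without the filter. All genes called in EC made up 6.39% with DESeq2, 5.26% without the filter and 2.46% in the fit of 16 libraries. In HSC the share was 2.70% with DESeq2 and 2.70% without the filter. Without the filter, 1 interaction passed, Hsph1 between HSC and KC, as did 3.81% of all genes.

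Members passing between EC and HSC numbered 5 without the filter, 1 in the WT libraries and 1 in those labelled KO, against 3. Of all genes, 5262 of 29481, 1630 of 15979 and 2192 of 16037 passed, against 4481 of 17214. Between EC and KC, 2 members passed under totals and 1 in WT, against 4. Of all genes, 6225 of 17214 and 2762 of 15979 did, against 5513 of 17214. Between HSC and KC, 5 members passed with DESeq2, 1 in WT and 5 in those labelled KO, against 3. Of all genes, 8061 of 29481, 3391 of 15979 and 4964 of 16037 did, against 7389 of 17214. Between HSC and HEP, 8 members passed under totals, against 5, where 69.8% of all genes did, against 58.4%. Ratios against HEP changed sign under totals for 4 members in EC (Hspa5, Hspa8, Hsph1, Hsp90aa1), 4 in HSC (Hspa5, Hspa8, Hsph1, Hspb1) and 3 in KC (Hspa5, Hsph1, Hsp90aa1). Of these, Hspa5 in EC (0.38) and KC (0.056) had passed the threshold under TMM. In WT alone, Hspb1 turned in EC (-0.27).

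Over the settings, adjusted p ranged from 2.87e-05 to 0.367 for Hspb1 in EC, from 4.52e-06 to 0.702 for Hsph1 and from 1.63e-05 to 0.702 for Dnajb1 in HSC. Leaving out 1 library turned the sign for Dnajb1 (-0.35 to 0.34), Hsp90aa1 (-0.13 to 0.29), Hspa1a (-1.87 to 0.56) and Hspa1b (-1.77 to 0.27) in EC, and for Hspa5 in HSC (-0.47 to 0.25). In KC it did so for Hsph1 (-0.42 to 1.43), Hspa1a (-1.40 to 0.035), Dnajb1 (-1.10 to 0.13), Hspb1 (-0.28 to 0.73), Hspd1 (-0.075 to 0.31) and Hspe1 (-0.20 to 0.36). In HEP it did so for Dnajb1 (-0.051 to 0.34), Hspa1b (-0.34 to 0.075), Hspa5 (-0.011 to 0.57), Hspa8 (-0.34 to 0.093), Hspb1 (-1.94 to 0.050) and Hspe1 (-0.26 to 0.47). The number of passing members between EC and HSC and between EC and KC also changed when single libraries were left out. So did the number of further chaperone genes called in EC.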
